A study of Mus musculus with 54 samples.

Results

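The genes described here encode the subunits of the proteasome, the barrel-shaped protease that degrades ubiquitin-tagged proteins. Members were all gene symbols of the deposited expression matrix that begin with Psma, Psmb, Psmc, Psmd or Psme and end in a number, without Psmb11, the thymus-specific beta subunit. This gave 41 members of 13611 genes. Psmd5, Psmd9 and Psmd10 are members by name and are also on a list of assembly and regulation genes used below. Of these, 36 are called constitutive here and 5, Psmb8, Psmb9, Psmb10, Psme1 and Psme2, are called inducible. The 41 genes lie on 15 mouse chromosomes.

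The series followed messenger RNA after ionizing radiation in 54 libraries. The irradiated groups were 4 organs of C57B6 mice, the thymus, the spleen and both intestines, small and large, and cultured NIH3T3 cells, a line of mouse embryo fibroblasts, each after 10 Gy of gamma rays. Libraries were hourly up to 8 h, up to 12 h in NIH3T3, with a last library at 24 h. The reference of each system was 1 untreated library at 0 h. The labels give no age, no allele and no pooling, and they do not tie a library to an animal or culture. Only the 0 h libraries were untreated, so radiation cannot be told apart from time, handling or culture.

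The proteasome core is a stack of 4 rings, with outer rings of alpha subunits and inner rings of beta subunits, of which Psmb5, Psmb6 and Psmb7 carry the constitutive catalytic sites. Interferon is known to raise Psmb8, Psmb9 and Psmb10, which replace Psmb5, Psmb6 and Psmb7 in newly built cores and form the immunoproteasome, a source of peptides for MHC class I. The 19S cap, with its Psmc ATPases and Psmd non-ATPases, recognises and unfolds ubiquitinated proteins. Other activators are the interferon-inducible Psme1 and Psme2 ring, the nuclear Psme3 ring and the large Psme4 protein.

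Expression is given as FPKM, the fragments of a gene relative to its length and to the mapped fragments of the library. A change is a difference of log2(FPKM + 1) between groups, with its limma standard error after ±, and a gene is said to have passed when its Benjamini-Hochberg adjusted p over all genes tested in the system was below 0.05. Within a system, neighbouring hours stood in for replicates. Relative depth was read from the most common ratio of low FPKM values between a library and its 0 h library. It differed between libraries of a system by 1.87 to 4.14 times. In thymus the 8 h and 24 h libraries were the shallowest, at 0.246 and 0.313 of 0 h. These 2 values are rough, since 12.4% and 10.4% of the low genes lay within 0.05 log2 of that ratio. FPKM summed to between 866950 and 1010521 for small intestine, 503486 and 666262 for large intestine, 395216 and 566863 for spleen, 296891 and 447373 for thymus, and 339108 and 412129 for NIH3T3. Defining markers fitted the tissue labels, but 3 libraries also held markers of another organ. The sum of 8 small intestine epithelium markers was 37000 FPKM in the 2 h large intestine library and 11300 FPKM in the 24 h thymus library, against 20.3 to 70.1 FPKM in the other thymus libraries. The sum of 6 pancreas acinar markers was 48300 FPKM in the 6 h spleen library, against 25.8 FPKM at 0 h. Counts of members that rest on the spleen and large intestine libraries are given with and without them. The 24 h thymus library is the only 1 of its hour, so its results are given with a subtraction instead.

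Constitutive subunits were expressed in all 5 systems, at levels that differed between systems. Psmd2, for example, had a median of 50.54 FPKM in thymus and 129.9 FPKM in NIH3T3. FPKM totals also differed between systems, as given above, and levels were not rescaled for this. The median over the 36 constitutive members of their own median level was 99.6 FPKM in NIH3T3, 82.0 in small and 68.2 in large intestine, 62.4 in spleen and 57.5 in thymus. Psmb4, a structural beta subunit, was the highest constitutive member in each system, with medians of 172.8 to 278.8 FPKM. Psma3, an alpha subunit, was the lowest in each, at 5.542 to 7.82 FPKM. The median over constitutive members of the standard deviation of log2 values across libraries was 0.30 in large intestine, 0.25 in thymus, 0.16 in spleen, 0.15 in NIH3T3 and 0.13 in small intestine.

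Inducible subunits, by contrast, differed widely between systems. Psmb8, which replaces Psmb5, had a median of 196.8 FPKM in small intestine (range 163.6 to 265.9), 156.2 in spleen (143.9 to 277.5), 149.1 in thymus (114.3 to 243.9) and 27.58 in large intestine (19.4 to 78.98). The ranges of small intestine, spleen and thymus overlapped, and the range of large intestine lay below all 3. In NIH3T3 Psmb8 was listed at 0 in 9 of 14 libraries and reached at most 0.2344 FPKM. Psmb9, which replaces Psmb6, had its highest median in spleen, 139.2 FPKM, followed by thymus at 114.2, small intestine at 74.21, large intestine at 19.23 and NIH3T3 at 1.155. Psmb10, which replaces Psmb7, was instead highest in small intestine, with a median of 203.6 FPKM, against 100.8 in large intestine, 82.78 in thymus, 72.09 in spleen and 10.28 in NIH3T3.

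The cap gene Psme1 had the highest median of all 41 members in small intestine, 268.6 FPKM, and in spleen, 207.9 FPKM. Its medians were 115.9 FPKM in large intestine, 113.1 in thymus and 32.7 in NIH3T3. Psme2, its partner, had medians of 62.32 FPKM for small intestine, 26.87 in spleen, 23.86 in large intestine, 17.81 in thymus and 7.317 in NIH3T3. Psme2 shares 99.4% identity over 82.5% of its transcript with Psme2b, a gene on another chromosome that was listed at 410.8 FPKM in small intestine at 0 h, against 61.42 FPKM for Psme2. Fragments may have been split between them, so Psme2 levels are uncertain, and changes of Psme2b are given beside those of Psme2. In all, 8 members have another annotated gene with at least 95% identity over at least 50% of the transcript, among them Psmb5, whose closest copy is Gm3375, and Psma5.

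Summed over the 6 catalytic genes, Psmb8, Psmb9 and Psmb10 gave 50.5 to 63.6% of FPKM in small intestine, 55.2 to 68.5% in spleen, 55.1 to 66.2% in thymus, 27.3 to 39.8% in large intestine and 2.43 to 5.26% in NIH3T3. The ranges of small intestine, spleen and thymus overlapped. Large intestine lay below these 3, and NIH3T3 below all tissues.

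**Figure D1:**
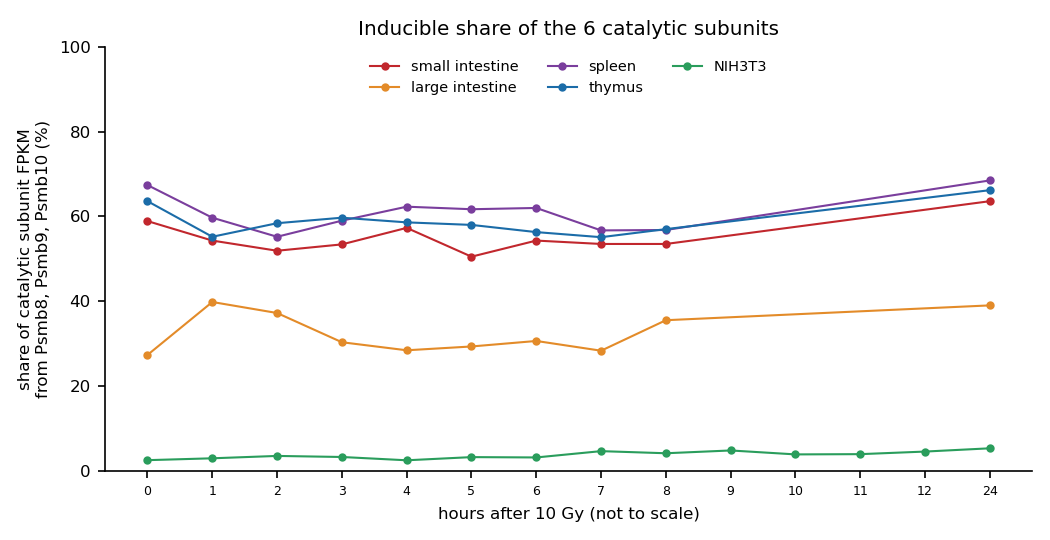
Share of the summed FPKM of Psmb5, Psmb6, Psmb7, Psmb8, Psmb9 and Psmb10 that came from Psmb8, Psmb9 and Psmb10 (y axis, percent) at each hour after 10 Gy (x axis, not to scale), with 1 library per point and 1 line per system. Values for small intestine, spleen and thymus lie between 50.5 and 68.5%, large intestine between 27.3 and 39.8% and NIH3T3 at or below 5.26%.

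The levels of spleen and thymus were set against those of both intestines over all 40 tissue libraries. Psmb9 was higher in the lymphoid tissues by 1.82 ± 0.09 on the log2 scale (limma, adjusted p = 4.64e-16), with means of 138.2 FPKM against 47.37 FPKM. Psmb8 was higher by 1.09 ± 0.07 (limma, adjusted p = 3.95e-13), with 171.8 FPKM against 116.2 FPKM. Both lie beside the peptide transporter gene Tap1 on chromosome 17 (GRCm38.p6, Psmb9 at 34182030 to 34187330, Tap1 at 34187556 to 34197225 and Psmb8 at 34198195 to 34201454), and Tap1 was higher by 1.80 ± 0.06 (limma, adjusted p = 3.76e-19). The median of Psmb8 was higher in small intestine, 196.8 FPKM, than in spleen, 156.2, or thymus, 149.1, and was 27.58 in large intestine. This contrast therefore averages unlike intestines, and Psmb8 was not higher in lymphoid tissue than in each intestine.

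No other member was higher in the lymphoid tissues, and 33 of 41 were lower. Of all 9980 genes tested, 87.8% passed in this comparison, 43.3% higher and 44.5% lower, so a call says little about these genes, and the sizes are more informative. The lowest were Psmb10 at -0.81 ± 0.05, Psme4 at -0.78 ± 0.05 and Psme2 at -0.77 ± 0.06, and Psme2b was at -0.75 ± 0.07. Psmd13, a 19S non-ATPase subunit, was at -0.73 ± 0.05. The catalytic counterparts Psmb6, Psmb5 and Psmb7 were at -0.47 ± 0.06, -0.42 ± 0.07 and -0.39 ± 0.06. Psme1 was at -0.16 ± 0.05 and passed, and Psme3 was at -0.06 ± 0.05 and did not (limma, adjusted p = 0.278). The median over the 36 constitutive members was -0.26, against -0.01 over all genes tested. These 20 libraries a side come from 2 organs each and share hours, so n counts libraries and not animals.

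Promoter windows are shown for the genes whose levels or later changes set the inducible and constitutive groups apart, 250 bases before to 50 after the RefSeq start on GRCm38.p6, 5′ to 3′. Capitals mark letters that match a searched motif on either strand, and each window printed holds at most 1 match. Psmb8 and Psmb9 are the members higher in the average of spleen and thymus than in that of both intestines. Psmb5 and Psmb6 are their constitutive counterparts, and Psme1, Psme2 and Psmb10 passed at 24 h in thymus.
Psmb8, chr17:34197945-34198244, plus strand: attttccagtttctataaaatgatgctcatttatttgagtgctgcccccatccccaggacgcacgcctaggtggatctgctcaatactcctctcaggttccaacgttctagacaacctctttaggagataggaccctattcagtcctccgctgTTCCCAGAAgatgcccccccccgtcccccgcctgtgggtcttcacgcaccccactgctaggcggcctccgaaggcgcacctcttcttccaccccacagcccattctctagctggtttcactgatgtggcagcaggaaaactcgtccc
Psmb9, chr17:34187281-34187580, minus strand: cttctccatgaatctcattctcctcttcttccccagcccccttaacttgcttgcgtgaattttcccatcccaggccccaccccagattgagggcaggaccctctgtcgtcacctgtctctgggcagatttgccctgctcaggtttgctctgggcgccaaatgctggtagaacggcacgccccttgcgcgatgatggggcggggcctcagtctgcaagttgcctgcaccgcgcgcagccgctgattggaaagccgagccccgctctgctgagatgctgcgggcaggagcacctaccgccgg
Psmb5, chr14:54617946-54618245, minus strand: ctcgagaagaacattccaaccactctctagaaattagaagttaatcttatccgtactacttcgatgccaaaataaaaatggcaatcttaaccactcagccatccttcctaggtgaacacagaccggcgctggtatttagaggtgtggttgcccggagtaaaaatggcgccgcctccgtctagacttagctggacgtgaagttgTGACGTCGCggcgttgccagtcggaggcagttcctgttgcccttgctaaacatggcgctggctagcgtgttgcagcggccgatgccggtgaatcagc
Psmb6, chr11:70525107-70525406, plus strand: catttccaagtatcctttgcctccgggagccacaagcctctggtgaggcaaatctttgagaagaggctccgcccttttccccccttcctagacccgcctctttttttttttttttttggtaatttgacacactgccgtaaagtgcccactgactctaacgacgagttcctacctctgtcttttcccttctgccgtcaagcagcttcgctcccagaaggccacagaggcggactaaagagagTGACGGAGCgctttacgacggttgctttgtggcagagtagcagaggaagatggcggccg
Psme1, chr14:55578244-55578543, plus strand: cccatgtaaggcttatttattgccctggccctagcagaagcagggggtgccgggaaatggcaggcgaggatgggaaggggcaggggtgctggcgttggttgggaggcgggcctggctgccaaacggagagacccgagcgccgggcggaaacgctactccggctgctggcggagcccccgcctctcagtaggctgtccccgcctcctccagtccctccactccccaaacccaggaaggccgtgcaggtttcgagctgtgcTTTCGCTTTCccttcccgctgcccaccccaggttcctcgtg
Psme2, chr14:55590972-55591271, minus strand: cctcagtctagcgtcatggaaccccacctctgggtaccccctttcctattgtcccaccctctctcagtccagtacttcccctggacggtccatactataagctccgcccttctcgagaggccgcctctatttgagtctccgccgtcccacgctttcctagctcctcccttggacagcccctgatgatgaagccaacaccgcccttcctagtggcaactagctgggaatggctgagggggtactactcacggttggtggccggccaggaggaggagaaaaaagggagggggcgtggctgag
Psmb10, chr8:105938343-105938642, minus strand: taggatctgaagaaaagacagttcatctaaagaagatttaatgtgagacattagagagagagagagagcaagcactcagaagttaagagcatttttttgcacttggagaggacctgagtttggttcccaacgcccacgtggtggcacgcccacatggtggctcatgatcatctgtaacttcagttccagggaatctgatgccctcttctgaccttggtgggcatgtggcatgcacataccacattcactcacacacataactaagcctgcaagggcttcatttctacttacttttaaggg

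A RefSeq promoter was found for 35 of the 41 members, 30 constitutive and 5 inducible. The core of the interferon response element, searched as GAAA, any 2 bases and GAAA on either strand, was in 3 constitutive members, Psmb3, Psmd4 and Psmd9, in 1 of the 5 inducible members, Psme1 (first base at 10, counting the start as 1), and in 3.44% of 32851 mouse promoter windows. The STAT site TTCNNNGAA was in Psmb8 (first base at -97) and Psmd2, and in 8.30% of all windows. The antioxidant response element TGACNNNGC was in 6 constitutive members, Psmb5, Psmb6, Psmc6, Psmd12, Psmd9 and Psme4, and in 12.4% of all windows. The NF-kB site, searched as GGG, any 3 bases and TTCC, was in 3 constitutive members, Psmd12, Psmd2 and Psme4, and in 5.56% of all windows. Neither of the last 2 motifs was found in the 5 inducible windows, and the windows of Psmb9, Psmb10 and Psme2 held none of the 4. A match describes letters only, and no binding was measured.

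Over the first 8 h, no member passed in spleen or thymus, and Psmb8 came nearest in thymus and Psmb10 in spleen. For 1 to 8 h against 0 h, 8.68% of all genes passed in spleen and 12.2% in thymus, in either direction, and 4 members in spleen and 2 in thymus had an unadjusted p under 0.05, as had 23.4% and 26.1% of all genes. Psmb8 in spleen was at 243.5, 190.7, 143.9, 146.8, 150.5, 150.6, 159.8, 152.6 and 171.3 FPKM at 0 to 8 h, and at 277.5 FPKM at 24 h. All 8 libraries from 1 to 8 h lay below both the 0 h and the 24 h library. The mean at 1 to 8 h was 158.3 ± 15.6 FPKM (SD, n = 8), against 243.5 FPKM at 0 h, a change of -0.62 ± 0.25 (limma, adjusted p = 0.116).

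In thymus Psmb8 was at 228.6, 205.4, 161.0, 137.1, 126.3, 129.7, 114.3, 137.0 and 165.8 FPKM at 0 to 8 h, and at 243.9 FPKM at 24 h. Again the libraries from 1 to 8 h all lay below the 0 h and 24 h libraries, with the lowest at 6 h. Their mean was 147.1 ± 29.2 FPKM (SD, n = 8), a change of -0.66 ± 0.25 (limma, adjusted p = 0.0834). Without the 2 h large intestine, 6 h spleen and 24 h thymus libraries the thymus change passed (limma, adjusted p = 0.0301). With values brought to 1 common distribution, quantile normalization, Psmb8 passed in spleen at -0.71 (limma, adjusted p = 0.0361) and in thymus at -0.91 (limma, adjusted p = 0.00543).

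Psmb10 in spleen averaged 71.3 ± 6.61 FPKM at 1 to 8 h (SD, n = 8), against 97.98 FPKM at 0 h, a change of -0.46 ± 0.15 that did not pass (limma, adjusted p = 0.0613). All 8 libraries lay below 0 h, and without the 3 libraries with another organ's markers the change was -0.49 (limma, adjusted p = 0.0352). In thymus Psmb10 was level with 0 h, with 82.7 ± 7.94 FPKM at 1 to 8 h (SD, n = 8) against 82.22 FPKM at 0 h. Psmb9 was at -0.28 ± 0.29 in spleen and -0.28 ± 0.30 in thymus, and neither passed. Psme1 was at -0.05 ± 0.16 in spleen and -0.23 ± 0.16 in thymus. The median change of the 5 inducible members was -0.28 in spleen and -0.23 in thymus, against 0.08 and -0.03 for the 36 constitutive members and 0.02 for all genes tested in both tissues.

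Marker genes of lymphocytes were lower in the same libraries. The sum of 8 B cell markers in spleen was 357 to 1830 FPKM at 1 to 8 h, against 2420 FPKM at 0 h, and none of the 8 was at 0. The sum of 8 T cell markers in thymus was 1070 to 2340 FPKM at 1 to 8 h, against 2480 FPKM at 0 h. Their part in the changes of Psmb8 and Psmb10 was not tested. In bulk tissue, fewer cells of a type and less RNA per cell cannot be told apart.

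The difference between tissues was tested directly. The change of Psmb8 at 1 to 8 h was -0.66 ± 0.25 in spleen and thymus relative to the intestines and did not pass (limma, adjusted p = 0.146), and no member passed, against 3.02% of all genes. At an unadjusted p under 0.05 there were 3 of 41 members and 17.5% of all genes. In small intestine Psmb8 was at 163.6 to 211.3 FPKM at 1 to 8 h, around the 198.0 FPKM of 0 h, a change of -0.05 ± 0.25. With quantile normalization the difference for Psmb8 was -0.78 (limma, adjusted p = 0.0378).

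**Figure D2:**
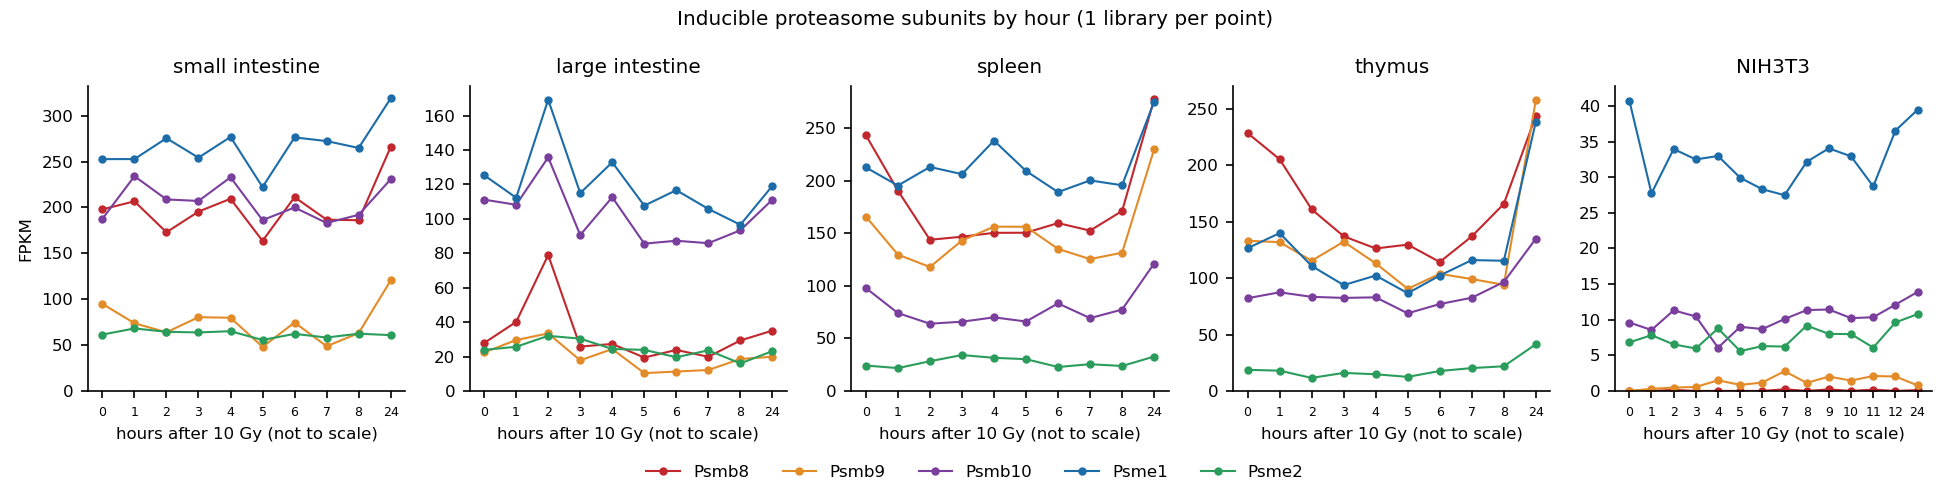
FPKM of the 5 inducible members (y axis, 1 line per gene, from 0) at each hour after 10 Gy (x axis, not to scale) in the 5 systems, with 1 library per point. In spleen and thymus Psmb8 lies below its 0 h value in all libraries of 1 to 8 h and above it at 24 h, with 277.5 and 243.9 FPKM. In NIH3T3 Psmb8 and Psmb9 stay below 2.8 FPKM.

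At 24 h in thymus, 13 members were higher and 1 was lower than at 0 h. This was read against a wide response, since 45% of all genes tested passed in either direction, 26.4% higher and 18.6% lower. In all, 14 of the 41 members passed, a smaller share than the 45% of all genes. The count therefore does not set the members apart from other genes. Psme2 was the highest, at 41.37 FPKM at 24 h against 18.72 FPKM at 0 h, a change of 1.10 ± 0.26 (limma, adjusted p = 0.00133). Psme2b gave 283.1 FPKM against 116.0 FPKM, a change of 1.28 ± 0.32 that passed as well. Psme1 was at 238.7 FPKM against 126.5 FPKM, a change of 0.91 ± 0.22 (limma, adjusted p = 0.0016). The other 9 thymus libraries held 86.64 to 139.9 FPKM of Psme1, all below the 24 h library.

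Of the inducible catalytic subunits, Psmb10 and Psmb9 were higher at 24 h in thymus and Psmb8 was near its 0 h level, and only Psmb10 passed. Psmb10 rose to 135.0 FPKM, against 82.22 FPKM at 0 h, by 0.71 ± 0.20 (limma, adjusted p = 0.0063). Psmb9 was at 258.0 FPKM against 133.1 FPKM, with the 9 other thymus libraries at 90.55 to 133.1 FPKM, but its change of 0.95 ± 0.39 did not pass (limma, adjusted p = 0.0526). Psmb8 was at 243.9 FPKM against 228.6 FPKM, a change of 0.09 ± 0.33. Their counterparts did not pass either, with Psmb6 at 0.49 ± 0.25, Psmb7 at 0.31 ± 0.26 and Psmb5 at 0.12 ± 0.31.

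Of the 10 constitutive members that rose in the 24 h thymus, 9 came from the core or the ATPase ring. Psmc2, a 19S ATPase, was at 109.7 FPKM against 60.39 FPKM, a change of 0.85 ± 0.28. Psmb1, a structural beta subunit, was at 226.9 FPKM against 126.1 FPKM, a change of 0.84 ± 0.21. The ATPase Psmc5 followed at 0.73 ± 0.24, and the alpha subunits Psma1 and Psma2 at 0.68 ± 0.25 and 0.64 ± 0.26. By class, 3 of 7 alpha subunits, 3 of 7 constitutive beta subunits, 3 of 6 ATPases and 1 of 14 non-ATPases rose. The 14 include Psmd5, Psmd9 and Psmd10, which are also on the assembly list. The median change was 0.91 for the 5 inducible and 0.46 for the 36 constitutive members, against 0.15 for all genes tested. Limma adjusted p was 0.0155 for Psmc2, 0.00266 for Psmb1, 0.017 for Psmc5, 0.0298 for Psma1 and 0.0439 for Psma2.

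These rises depended on how libraries were scaled. Quantile normalization moved the median of all genes to -0.12, against 0.15 as deposited, and the split of all genes to 2334 higher and 3152 lower, against 3281 and 2314. It left 1 member higher, Psme2, and 4 lower, among them Psme3, and Psmb8 at -0.80. Median ratio scaling kept 9 of the 14 members, 8 higher and 1 lower. The 24 h thymus was 1 library against 1 at 0 h, with no replicate check.

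The same 24 h thymus library held small intestine transcripts, at 12.2% of the 24 h small intestine library by the median of 8 markers (range 6.39 to 28.3%). That share of the small intestine library was subtracted and the remainder scaled back up to a whole library, an alternative chosen after seeing the data. Then 16 members passed, 14 higher and 2 lower and 13 of them shared with the 14, against 43% of all genes, 20.8% higher and 22.1% lower. Psme1 was then at 227.6 FPKM, Psme2 at 38.67, Psmb10 at 121.7 and Psmb9 at 277.1, and Psmb9 passed (limma, adjusted p = 0.0337). Psme2b was at 258.4 FPKM, a change of 1.15 ± 0.32 (limma, adjusted p = 0.00585). T cell markers were at 356 FPKM at 24 h against 2480 FPKM at 0 h, and 8 macrophage markers at 1990 FPKM against 572 FPKM. Their part in the rises was not tested.

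Psme3, whose product caps nuclear proteasomes and does not depend on ubiquitin, was the member that fell in both lymphoid tissues at 24 h. In spleen it was at 53.52, 70.40, 90.17, 70.71, 71.13, 46.05, 47.82, 54.25 and 53.76 FPKM at 0 to 8 h and at 25.52 FPKM at 24 h. The 24 h library was the lowest of the 10, and the 2 h library the highest. The change at 24 h was -1.04 ± 0.23 (limma, adjusted p = 0.00318), and Psme3 was the only 1 of 41 members to pass there, against 20.8% of all genes in either direction and 7.51% lower. In a fit of spleen alone it kept its size and missed the threshold (limma, adjusted p = 0.0554).

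In thymus Psme3 was at 44.25, 35.72, 30.94, 28.02, 30.58, 30.62, 37.13, 36.17 and 37.31 FPKM at 0 to 8 h and at 23.23 FPKM at 24 h. Here too the 24 h library was the lowest. The change was -0.90 ± 0.23 (limma, adjusted p = 0.00297), and after the small intestine share was subtracted Psme3 was at 19.81 FPKM at 24 h and still passed, at -1.12 (limma, adjusted p = 0.000456). In small intestine Psme3 was at -0.22 ± 0.23, in large intestine at 0.07 ± 0.23 and in NIH3T3 at -0.28 ± 0.13, and none of these passed. Whether the tissues differ in this change was not tested.

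The ratio of the inducible cap gene Psme1 to Psme3 stood apart at 24 h in both lymphoid tissues. It was 10.8 in spleen at 24 h, against 2.36 to 4.55 in the other 9 libraries, and 10.3 in thymus, against 2.76 to 3.92. In small intestine it was 6.66 at 24 h, against 4.24 to 4.98. In large intestine it was 3.22, inside the range of the other libraries, 2.68 to 3.69. In NIH3T3 it was 0.966 at 24 h, against 0.536 to 0.819 in the other 13 libraries. B cell markers in spleen summed to 317 FPKM at 24 h against 2420 FPKM at 0 h, and macrophage markers to 6420 FPKM against 1900 FPKM. Their part in this ratio was not tested.

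**Figure D3:**
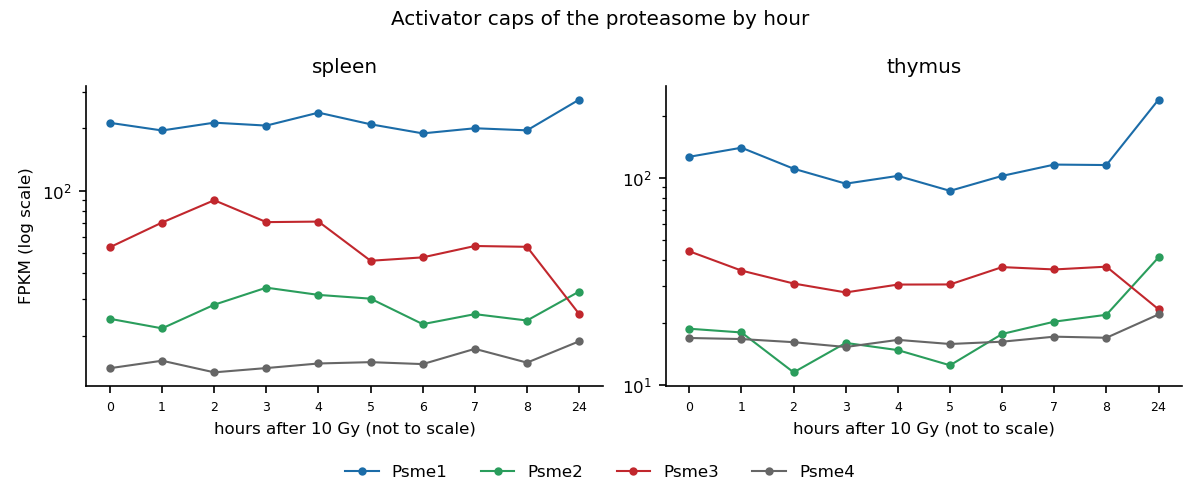
FPKM of the activator genes Psme1, Psme2, Psme3 and Psme4 (y axis, log scale) at each hour after 10 Gy (x axis, not to scale) in spleen and thymus, with 1 library per point. At 24 h Psme3 is at its lowest in both tissues, 25.52 FPKM in spleen and 23.23 FPKM in thymus, while Psme1 is at its highest, 275.3 and 238.7 FPKM.

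Other spleen members were higher at 24 h without passing. All 5 inducible members were above 0 h, by 0.47 ± 0.39 for Psmb9, 0.42 ± 0.26 for Psme2, 0.37 ± 0.22 for Psme1, 0.31 ± 0.20 for Psmb10 and 0.19 ± 0.33 for Psmb8. Psme2b was at 0.35 ± 0.32. Their median was 0.37, against 0.25 for constitutive members and 0.09 for all genes tested. Psme4 was at 0.41 ± 0.24, and Psmb5, Psmb6 and Psmb7 at 0.30 ± 0.31, 0.06 ± 0.25 and 0.38 ± 0.26.

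Immunoproteasome genes are known targets of interferon and feed the class I pathway, so both gene lists were read beside them. Of 21 interferon response genes, 17 rose in thymus at 24 h, with a median change of 2.85, and 13 rose in spleen, with a median of 1.61. None of them fell in either tissue. Of all genes, 26.4% were higher in thymus and 13.2% in spleen. With the small intestine share subtracted, 17 interferon response genes rose in thymus. These spleen and thymus libraries are the same ones whose lymphocyte and macrophage markers differ from 0 h. In thymus the largest rises were of Ifit3, at 509.5 FPKM against 19.43 FPKM, Isg15 at 1013 FPKM against 61.53 FPKM, Gbp3 at 148.9 FPKM against 12.25 FPKM and Rsad2 at 76.16 FPKM against 5.998 FPKM. In spleen they were of Ifit3, Irf7, Ifit1 and Oasl2, by 3.39 ± 0.86, 3.18 ± 0.53, 3.07 ± 0.99 and 2.85 ± 0.46. Irf1, an interferon-induced transcription factor, was at 0.71 ± 0.30 in thymus and 0.43 ± 0.30 in spleen and did not pass.

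Of 14 genes of MHC class I antigen processing, 9 rose and 1 fell in thymus at 24 h, and 5 rose and none fell in spleen, beside the same 26.4% and 13.2% of all genes. With the subtraction 9 rose and 1 fell in thymus. B2m, the class I light chain, was at 9949 FPKM against 1993 FPKM in thymus, a change of 2.32 ± 0.41. H2-K1, H2-T23 and Pdia3, a folding enzyme of class I molecules, rose there by 1.69 ± 0.20, 1.66 ± 0.26 and 1.55 ± 0.19. In spleen H2-T23, Pdia3, Calr and H2-D1 rose by 1.29 ± 0.26, 1.28 ± 0.19, 1.03 ± 0.22 and 0.92 ± 0.23, and B2m at 0.98 ± 0.41 did not pass. Tap1 passed in neither tissue, at 0.33 ± 0.28 in thymus and 0.40 ± 0.28 in spleen, nor did Nlrc5, the class I transactivator, at 0.67 ± 0.33 and 0.53 ± 0.33.

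Of 21 tested genes of proteasome assembly and regulation, 5 rose and 1 fell in thymus at 24 h, where 26.4% of all genes rose and 18.6% fell, and 1 rose in spleen, where 13.2% of all genes rose. Psmd5, Psmd9 and Psmd10 are on this list and are also members, counted among the 14 non-ATPases. With the subtraction 4 rose and 2 fell in thymus. Pomp, the chaperone of core assembly, was at 298.2 FPKM against 140.9 FPKM in thymus, a change of 1.08 ± 0.27, and at 290.7 FPKM against 196.1 FPKM in spleen, 0.57 ± 0.27, which did not pass. Nfe2l1, known to drive proteasome genes when the proteasome is inhibited, rose by 1.21 ± 0.21 in thymus and by 0.81 ± 0.20 in spleen. Nfe2l2, the transcription factor of the antioxidant response, rose by 1.79 ± 0.27 in thymus, and the chaperone gene Psmg1 fell by 1.06 ± 0.39 there. Of 16 tested genes of ubiquitin and delivery, 1 rose in thymus, Ddi2, by 0.73 ± 0.25, and none passed in spleen. Ddi2 is also on the assembly list, so its rise is counted in both.

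Within the first 8 h, the later hours were set against the earlier ones, 6 to 8 h against 1 to 5 h. In thymus 2 members rose, against 32.1% of all genes in either direction and 18.7% higher. Psme2 was at 17.66, 20.25 and 21.86 FPKM at 6, 7 and 8 h, against 17.96, 11.53, 15.99, 14.76 and 12.47 FPKM at 1 to 5 h. The groups overlapped only at the 1 h library, and the change was 0.44 ± 0.13 (limma, adjusted p = 0.0133), or 0.37 without the 8 h library (limma, adjusted p = 0.0842). Psme2b was at 0.23 ± 0.17 and did not pass. Psmd8, a 19S non-ATPase, was at 113.1 ± 23.4 FPKM at 6 to 8 h (SD, n = 3) and 89.2 ± 10.7 FPKM at 1 to 5 h (SD, n = 5), a change of 0.33 ± 0.11 (limma, adjusted p = 0.0309). It no longer passed without the library at 3, 5, 7 or 8 h, with limma adjusted p from 0.0572 to 0.298. Neither gene passed for 5 to 8 h against 1 to 4 h or in a fit of thymus alone. Of the other inducible members, Psmb8 was at -0.12 ± 0.17, Psmb9 at -0.22 ± 0.20, Psmb10 at 0.07 ± 0.10 and Psme1 at 0.08 ± 0.11.

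In the same hours 15 of 21 interferon response genes and 8 of 14 antigen processing genes rose in thymus, beside 18.7% of all genes, and none fell. Rsad2, Cxcl10, Ifit3 and Ifit1 led the interferon genes, by 2.43 ± 0.51, 1.83 ± 0.33, 1.77 ± 0.45 and 1.63 ± 0.51. Nlrc5, Tapbp, H2-D1 and H2-K1 led the antigen processing genes, by 0.89 ± 0.17, 0.81 ± 0.10, 0.74 ± 0.12 and 0.70 ± 0.10. Irf1 and Tap1 rose as well, by 0.55 ± 0.15 and 0.43 ± 0.14, and B2m, at 0.46 ± 0.21, did not pass. Among assembly genes Nfe2l1 rose by 0.89 ± 0.11 and Pomp, at 0.08 ± 0.14, did not pass. General epithelial markers in thymus summed to 1530 to 2720 FPKM at 6 to 8 h, against 391 to 1200 FPKM at 1 to 5 h, and 4 neutrophil markers to 527 to 1780 FPKM against 134 to 301 FPKM. Their part was not tested.

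In spleen 1 of 41 members passed between these windows, against 27.8% of all genes in either direction and 12.3% lower. It was Psme3, at 51.9 ± 3.58 FPKM at 6 to 8 h (SD, n = 3) and 69.7 ± 15.7 FPKM at 1 to 5 h (SD, n = 5), a change of -0.39 ± 0.12 (limma, adjusted p = 0.0184). The 5 h library, at 46.05 FPKM, was as low as the later ones. The call was lost without the 2 h library, at -0.29 (limma, adjusted p = 0.0948), without the 6 h library, at -0.33 (limma, adjusted p = 0.093), and in a fit of spleen alone (limma, adjusted p = 0.118). The inducible members lay between -0.26 ± 0.13 for Psme2 and 0.17 ± 0.10 for Psmb10, and none passed. Psme2b was at -0.27 ± 0.17. The 4 neutrophil markers rose, to a sum of 8780 to 12900 FPKM at 6 to 8 h, against 556 to 1340 FPKM at 1 to 5 h. Their part was not tested.

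**Figure D4:**
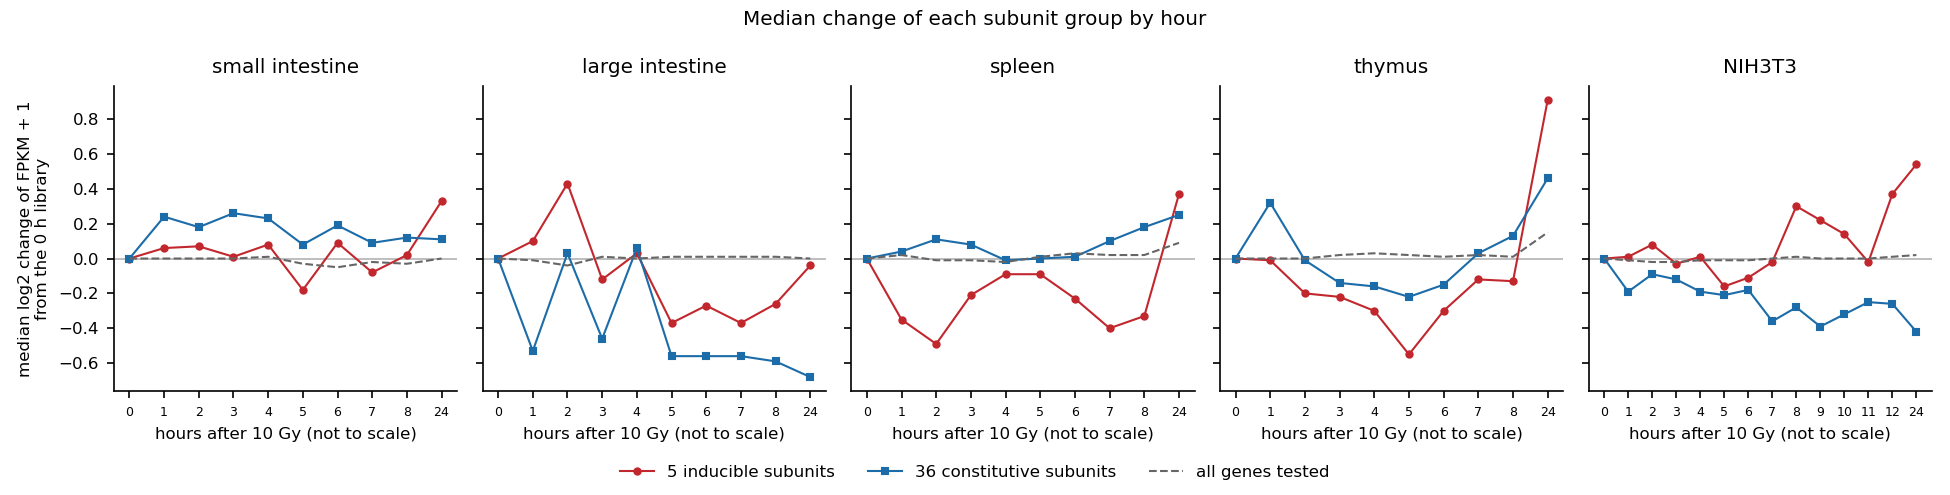
Median log2 change of FPKM + 1 from the 0 h library (y axis) over the 5 inducible members (4 in NIH3T3, where Psmb8 was too low), the 36 constitutive members and all genes tested, at each hour after 10 Gy (x axis, not to scale) in the 5 systems. In spleen and thymus the inducible median is below 0 in each library of 1 to 8 h, and it is 0.37 and 0.91 at 24 h. In NIH3T3 the constitutive median is below 0 at every hour and at -0.42 at 24 h.

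In NIH3T3 part of the constitutive subunits fell. At 24 h 13 of 40 members tested were lower than at 0 h and none was higher, all 13 of them constitutive, against 11% of all genes in either direction and 5.4% lower. Psmd13 led, at 84.28 FPKM at 0 h, 54.63 to 70.59 FPKM at 1 to 8 h, 55.77 to 58.25 FPKM at 9 to 12 h and 44.29 FPKM at 24 h. The 0 h library was the highest and the 24 h library the lowest of the 14. The change at 24 h was -0.91 ± 0.14 (limma, adjusted p = 0.00174). Psma5 and Psma6, alpha subunits, fell by 0.70 ± 0.19 and 0.58 ± 0.16, the ATPase Psmc2 by 0.63 ± 0.12, the catalytic Psmb6 by 0.59 ± 0.15 and the lid subunit Psmd12 by 0.56 ± 0.17.

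By class, 5 of 6 ATPases, 3 of 7 alpha subunits, 1 of 7 constitutive beta subunits and 4 of 14 non-ATPases fell. The median change of the 36 constitutive members was -0.42, with 35 of 36 below 0, against 0.02 for all genes tested. The summed FPKM of constitutive members was 3160 at 24 h and 4253 at 0 h, the lowest and the highest of the 14 libraries, and was already 3661 at 1 h. In the 0 h library, the only reference, 34 of 36 were above their own median. All members share these libraries, so their changes are not independent. The sum of 5 fibroblast markers was 1550 FPKM at 24 h and 760 FPKM at 0 h, and its part in the falls was not tested. Psmb7 and Psmb5, at -0.45 ± 0.15 and -0.47 ± 0.21, did not pass, nor did Psme3 at -0.28 ± 0.13 or Psme4 at 0.10 ± 0.18. The count was 3 with quantile normalization, 5 with no filter on low values and 8 without the 10 h library, all of them among the 13. The Psmb6, Psmc2 and Psmd13 calls held in each of these 3 settings, for which the share of all genes is not given here.

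Inducible members in NIH3T3 were low. Psmb9 was listed at 0 FPKM at 0 h, at 0.2964 to 1.489 FPKM at 1 to 5 h, at 1.13 to 2.772 at 6 to 8 h, at 1.456 to 2.095 at 9 to 12 h and at 0.7726 at 24 h. It rose at 9 to 12 h against 1 to 5 h, with 1.90 ± 0.30 FPKM (SD, n = 4) against 0.734 ± 0.467 FPKM (SD, n = 5), a change of 0.77 ± 0.18 (limma, adjusted p = 0.0146). The groups overlapped at 1 library of each. Psmb10 was at 13.89 FPKM at 24 h against 9.598 FPKM at 0 h, a change of 0.49 ± 0.28 that did not pass, and 13.89 was its highest value of the 14 libraries. Psme2 was at 0.59 ± 0.31 and Psme1 at -0.05 ± 0.17, and Psme2b at 0.12 ± 0.19.

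Between 1 to 5 h and 9 to 12 h, 6 members fell and Psmb9 rose in NIH3T3, against 13.6% of all genes in either direction, 7.04% higher and 6.52% lower. Psmd12 was at 69.7 ± 4.64 FPKM at 9 to 12 h (SD, n = 4) and 90.3 ± 7.85 FPKM at 1 to 5 h (SD, n = 5), a change of -0.37 ± 0.08 (limma, adjusted p = 0.0102), and the groups did not overlap. The ATPases Psmc4, Psmc2 and Psmc3 fell by 0.25 ± 0.06, 0.24 ± 0.06 and 0.23 ± 0.07, and Psmd3 and Psmd7 by 0.23 ± 0.07 and 0.22 ± 0.06. The count of 7 was 2 without the 10 h library and with quantile normalization, 3 without the 2 h library and 4 without the 9 h library. With quantile normalization, 681 of 10385 genes tested were higher and 615 lower. For the libraries left out, the share of all genes is not given here. The counterparts Psmb5, Psmb6 and Psmb7 were at -0.02 ± 0.10, -0.01 ± 0.07 and -0.16 ± 0.07, and none passed.

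For 1 to 8 h against 0 h, 2 members fell in NIH3T3, against 4.47% of all genes in either direction and 1.7% lower. Psmb6 was at 117.8 ± 9.69 FPKM at 1 to 8 h (SD, n = 8) against 161.8 FPKM at 0 h, a change of -0.46 ± 0.11 (limma, adjusted p = 0.0356). Psmd13 was at 62.8 ± 4.98 FPKM (SD, n = 8) against 84.28 FPKM, a change of -0.42 ± 0.10 (limma, adjusted p = 0.0384). In both genes every library from 1 to 8 h lay below 0 h. Both calls were lost without the 4, 5, 8 or 10 h library, and Psmd13 also without the 7 h library, with limma adjusted p from 0.0512 to 0.0563. Psme1, at -0.41 ± 0.13, and Psme4, at 0.41 ± 0.13, did not pass. No member passed for 6 to 8 h against 1 to 5 h, against 2.3% of all genes, and 7 of 40 had an unadjusted p under 0.05, as had 20.2% of all genes.

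Among partner genes in NIH3T3, Pomp fell by 0.54 ± 0.14 at 24 h, and Nfe2l1, at 0.33, did not pass. Tap2 and Tapbp, parts of the peptide loading complex, rose at 24 h by 0.78 ± 0.22 and 0.74 ± 0.14, with Tap1 at 0.65 and B2m at -0.08, neither of which passed. Stat2 was the 1 of 11 tested interferon response genes that rose at 24 h, by 0.76 ± 0.20, beside 5.64% of all genes. At 9 to 12 h against 1 to 5 h, 6 of 11 rose, beside 7.04% of all genes, among them Ifit1, Irf1, Stat2 and Ifit3, by 0.45 ± 0.13, 0.44 ± 0.14, 0.38 ± 0.10 and 0.36 ± 0.11. B cell, T cell, intestinal epithelium and general epithelium markers were at or near 0 in NIH3T3, with sums of at most 0.515 FPKM. Keratinocyte markers summed to at most 2.49 FPKM and thymic epithelium markers to at most 4.39 FPKM there.

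**Figure D5:**
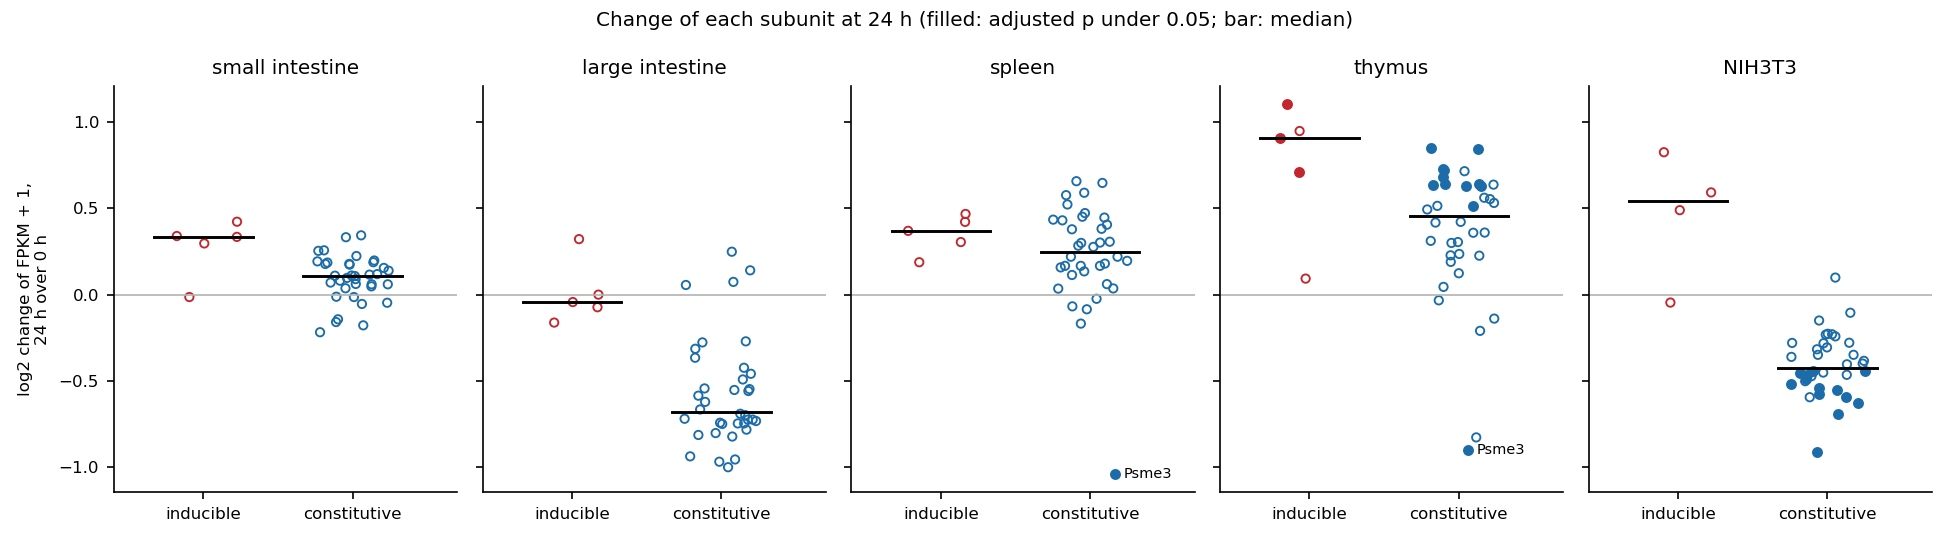
Log2 change of FPKM + 1 at 24 h over 0 h (y axis) of each member tested, inducible in red and constitutive in blue, per system. Filled points passed limma at an adjusted p under 0.05, and bars are medians. With the deposited scaling, in thymus the medians are 0.91 and 0.46, in NIH3T3 0.54 and -0.42, and Psme3 is the lowest point in spleen and thymus.

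In large intestine the constitutive members were high together in 3 libraries, and none passed at the adjusted threshold. Their summed FPKM was 4020 at 0 h, 4035 at 2 h and 4100 at 4 h, and 2574 to 2980 in the other 7 libraries. In these 3 libraries 32, 34 and 36 of 36 constitutive members were above their own median over the 10 libraries. Such counts were not particular to large intestine, with 34 in NIH3T3 at 0 h, 33 in thymus at 1 h and 32 in spleen at 24 h. The share of all genes above their own median is not given here. No member passed for 1 to 8 h against 0 h, against 1.48% of all genes, for 6 to 8 h against 1 to 5 h, against 0.498%, or for 24 h against 0 h, against 0.253%. At an unadjusted p under 0.05 there were 16, 24 and 23 of 41 members, and 14.1%, 13.7% and 7.42% of all genes, in the same order of comparisons. The median constitutive change at 24 h was -0.68, against 0 for all genes tested.

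Psmb7 in large intestine illustrates this. It was at 191.5, 106.1, 162.7, 126.5, 180.7, 117.2, 120.7, 114.4 and 107.6 FPKM at 0 to 8 h and at 97.35 FPKM at 24 h. The change at 24 h was -0.97 ± 0.26 (limma, adjusted p = 0.156), and Psmb7 passed without the 1 h or the 2 h library. For 1 to 8 h against 0 h Psmb7 was at -0.59 ± 0.20, Psmb5 at -0.68 ± 0.23 and Psmb6 at -0.21 ± 0.19, while the inducible members stayed between -0.29 ± 0.30 for Psmb9 and 0.09 ± 0.25 for Psmb8. Without the 2 h library, which held small intestine markers, 8 members passed as lower, against 4.26% of all genes in either direction and 1.22% lower. Large intestine epithelium markers summed to 14000 FPKM at 24 h and 24600 FPKM at 0 h. That fall was of Car1, from 22740 to 11430 FPKM, while Car4, Aqp8, Slc26a3 and Muc2 were higher at 24 h. The 4 keratinocyte markers summed to at most 4.84 FPKM after 0 h, against 27.6 FPKM at 0 h. The part of these markers was not tested. Of the other libraries left out in turn, the 4 h library gave 2 members and the 1 h library 1, without the share of all genes beside them.

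Between 6 to 8 h and 1 to 5 h all 5 inducible members of large intestine had negative changes. Their unadjusted limma p was 0.00234 to 0.0414, and none passed after adjustment. This was not particular to them, since 24 of all 41 members had an unadjusted limma p under 0.05. Constitutive members summed to 2590 to 2737 FPKM at 6 to 8 h, against 2751 to 4100 FPKM at 1 to 5 h. The 5 ratios of inducible to constitutive members gave exact permutation p from 0.286 to 0.857. Psmb9 was at 11.27, 12.17 and 18.58 FPKM at 6 to 8 h, against 29.58, 33.43, 17.79, 24.35 and 10.36 FPKM at 1 to 5 h, a change of -0.61 ± 0.20 (limma, adjusted p = 0.164). Psmb8 was at -0.47 ± 0.17, Psme2 at -0.45 ± 0.13, Psme2b at -0.29 ± 0.17, Psme1 at -0.24 ± 0.11 and Psmb10 at -0.24 ± 0.10. The 2 h library, the one with small intestine markers, held the highest Psmb8, at 78.98 FPKM against 19.4 to 40.11 FPKM in the other 9. With 5 to 8 h set against 1 to 4 h, Psmb9 and Psmb8 passed, at -0.95 (limma, adjusted p = 0.00154) and -0.74 (limma, adjusted p = 0.0199). With the 2 h library also left out, an alternative chosen after seeing the data, Psmb9 still passed, at -0.83 (limma, adjusted p = 0.00575), and Psmb8 did not, at -0.40 (limma, adjusted p = 0.138). Of all members, 6 passed without the 1 h library, 5 without the 5 h library and 1 without the 3 h or the 4 h library. The shares of all genes in these refits are not given here, so the counts cannot be set against them.

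In small intestine no member passed in any comparison, with 0.316%, 0.518% and 0.184% of all genes passing for 1 to 8 h against 0 h, 6 to 8 h against 1 to 5 h and 24 h against 0 h. No member had an unadjusted p under 0.05 either. Of the 36 constitutive members, 34 were above 0 h on average over 1 to 8 h, by a median of 0.17, against -0.02 for all genes tested. The 0 h library, the only reference, had the lowest constitutive sum of the 10, 3223 FPKM, with 3 of 36 above their own median. Psmb9 was at 48.05 to 80.41 FPKM at 1 to 8 h, below the 94.87 FPKM of 0 h and the 120.4 FPKM of 24 h, a change of -0.53 ± 0.30 over 1 to 8 h (limma, adjusted p = 0.842). At 24 h Psmb8 was at 265.9 FPKM against 198.0 FPKM, Psme1 at 318.9 FPKM against 252.7 FPKM and Psmb10 at 230.7 FPKM against 187.6 FPKM, changes of 0.42 ± 0.33, 0.34 ± 0.22 and 0.30 ± 0.20. In Psmb8, Psmb9 and Psme1 the 24 h library was the highest of the 10.

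Ratios of FPKM + 1 within a library, on the log2 scale, were tested between 6 to 8 h and 1 to 5 h for 5 pairs in 5 systems. Of these 25 exact two-sided permutation tests of 3 against 5 libraries, 1 gave the smallest p the design allows, 0.0357, and none passed after adjustment, where the smallest adjusted p was 0.67. A single ratio at the smallest p could not pass over 25 tests. That 1 was Psme1 to Psme3 in small intestine, at a log2 ratio of 2.28 ± 0.02 at 6 to 8 h (SD, n = 3) and 2.12 ± 0.07 at 1 to 5 h (SD, n = 5). In thymus Psmb9 to Psmb6 was at -0.21 ± 0.19 at 6 to 8 h and 0.13 ± 0.18 at 1 to 5 h (exact p = 0.0714, adjusted p = 0.67).

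Over the whole course, the Psmb8 to Psmb5 ratio in spleen was 5.96 at 0 h, 2.83 to 4.33 at 1 to 8 h and 5.50 at 24 h. In thymus it was 5.29 at 0 h, 3.18 to 4.17 at 1 to 8 h and 5.17 at 24 h. In both tissues the 0 h and 24 h libraries lay above all 8 libraries between. In small intestine the ratio was 4.44 at 0 h, 2.99 to 4.78 at 1 to 8 h and 5.25 at 24 h, so 0 h lay within the range of the hours that followed. The ratio of Psmb9 to Psmb6 was 2.0 in spleen, 1.86 in thymus and 0.72 in small intestine at 24 h, the highest of each tissue. In large intestine and NIH3T3 the 24 h ratios, 0.204 and 0.00723, lay inside the range of the other libraries.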

How the data were processed

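RNA of 54 libraries was sequenced after polyA selection with an unstranded kit, per the labels' protocols. The submitters' processing notes name the build mm10, TopHat2 2.1.0 and Cufflinks 2.1.1, and the FPKM values that the authors deposited for 13611 genes were used as given. Depth is unknown except in relative terms, any further scaling was not given in the sources used here, and no counting interval was computed. limma 3.58.1 in R 4.3.3 was fitted to log2(FPKM + 1) of every gene averaging 1 FPKM or more in the system, with a mean per time window (0, 1 to 2, 3 to 5, 6 to 8, 9 to 12 and 24 h) and a trended prior. The 40 tissue libraries were fitted together, leaving 20 residual degrees of freedom, and the NIH3T3 libraries alone, leaving 8. The test was two-sided at an adjusted p of 0.05, and was tested on simulated data. p-values measure the spread between neighbouring hours of a window. In tissues this is 1 estimate per gene shared by all 4 organs, not the spread of the organ described. Single 0 h and 24 h libraries are assumed to vary alike. Always named were the inducible members, Psmb5, Psmb6, Psmb7, Psme3 and Psme4, then up to 5 highest and 5 lowest others that passed, and up to 4 per list. Members and lists were chosen with earlier results of these data known. Sequence copies were found with BLAST+ 2.17.0.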

Additional observations from a re-analysis of the deposited data

Results flagged for a closer look

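In groups of 4 to 8 libraries, the gap of the highest or lowest library to its nearest neighbour was set against the range of the group, for 10 members and 110 groups in all. The gap passed Dixon's 95% critical value in 10 groups, and chance alone marks about 1 in 20 groups. In small intestine at 1 to 8 h these were Psme1 at 5 h, the lowest at 222 FPKM against a median of 272 FPKM in the others (gap 0.585 of the range), and Psmb7 at 7 h, the lowest at 130 against 152 FPKM (0.541). In spleen at 1 to 5 h it was Psmb8 at 1 h, the highest at 191 against 149 FPKM (0.839). In thymus these were Psmb7 at 1 h, the highest of 1 to 8 h at 155 against 99.6 FPKM (0.672), and Psmb10 at 5 h, the lowest of 1 to 5 h at 68.8 against 83.2 FPKM (0.757).

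The other 5 were in NIH3T3. Psmb10 at 4 h was the lowest of 1 to 8 h at 6.07 against 10.1 FPKM (0.540), and Psmb8 at 2 h was the only value above 0 at 1 to 5 h, 0.141 FPKM (1.0). Psme4 at 4 h was the highest of 1 to 5 h at 26.1 against 21.8 FPKM (0.756) and at 12 h the lowest of 9 to 12 h at 16.5 against 20.9 FPKM (0.898). Psmb9 at 10 h was the lowest of 9 to 12 h at 1.46 against 2.03 FPKM (0.892).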

How the results depend on the processing

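Of 141 counts of members recomputed under single choices, 117 stayed within 1.5 times the count first given. Quantile normalization gave 7 members in large intestine, 3 in spleen and 2 in thymus at 1 to 8 h, 0 in NIH3T3 at 1 to 8 h, 2 in spleen at 6 to 8 h, 5 in thymus and 3 in NIH3T3 at 24 h, 2 in NIH3T3 at 9 to 12 h and 1 for lymphoid minus intestinal change. With it Psmb8 reversed to -0.80 and Psma2 to -0.15 in thymus at 24 h. Median ratio scaling gave 9 in thymus at 24 h. No filter on low values gave 0 in NIH3T3 at 1 to 8 h and 5 at 24 h. A separate fit gave 0 in spleen at 6 to 8 h. A late arm of 5 to 8 h gave 6 in large intestine, or 3 with its 2 h library also left out, 0 in thymus and 1 in NIH3T3. Without the 3 libraries with another organ's markers, counts were 8 in large intestine, 1 in spleen and 1 in thymus at 1 to 8 h, 0 in spleen and 4 in thymus at 6 to 8 h, and 3 in spleen at 24 h. The cause of these moves was not tested. Where no share of all genes is printed for a setting, its count of members cannot be set against all genes. Leaving out each library in turn gave 0 to 8, 0 to 6 and 0 to 1 members in large intestine at 1 to 8, 6 to 8 and 24 h. It gave 0 to 1 in spleen at 1 to 8 and at 6 to 8 h, and 0 to 1, 1 to 3 and 12 to 15 in thymus at 1 to 8, 6 to 8 and 24 h. In NIH3T3 it gave 0 to 3 at 1 to 8 h, 8 to 14 at 24 h and 2 to 8 at 9 to 12 h. Lymphoid minus intestinal level gave 33 to 37. Over all settings, 91 values that did not pass had another sign than the one first given, in 44 of 198 changes of named members. No paired analysis was possible because, within a system, each hour has 1 library and the labels carry no replicate numbers. Hours are shared by the 4 organs, and with the hour as a replicate block, an alternative chosen after seeing the data, 1 member passed in spleen at 1 to 8 h, Psmb10 at -0.46 (limma, adjusted p = 0.0369), Psmb9 passed in thymus at 24 h (limma, adjusted p = 0.0236), lymphoid minus intestinal level gave 34 and change 0, and other counts stayed within 1.5 times. Depth, known only in relative terms, limits low values such as Psmb8 and Psmb9 in NIH3T3.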
